A study of Homo sapiens with 6 samples.

Results

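The genes described here are 10 components of the circadian clock: the activator CLOCK, the repressors PER1, PER2, PER3, CRY1 and CRY2, the D-box binding factors DBP and TEF, and the DEC repressors BHLHE40 and BHLHE41. They were chosen as a list of names, with earlier results of these data known, and matched to the gene symbols of the array annotation. All 10 were measured, each by 1 probe set, among 18417 genes in all. They were followed in the cell line MDA-MB-231, which was established from a human breast cancer that lacks hormone receptors and HER2 overexpression, in 3 samples treated with the multi-kinase inhibitor EC-70124 at 500 nM during 24 h and in 3 samples labelled control. Both groups were grown in DMEM with serum, and each sample was hybridized to 1 Affymetrix Human Gene ST array. The study calls the samples independent, and neither a step that synchronizes the cells nor a vehicle for the control cells is given in the sources used here. RNA of the treated cells was taken at 1 time, and the labels give no time for the control cells. A shift in the phase of a rhythm and a change in mean level therefore cannot be told apart in these arrays. A difference in harvest time between the groups cannot be told apart from the treatment either.

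In mammalian cells the clock is a loop of transcription and translation. CLOCK pairs with BMAL1 and activates genes through E-box elements, among them the PER and CRY genes, whose proteins return to the nucleus and repress that pair. BHLHE40 and BHLHE41, also known as DEC1 and DEC2, bind the same E-boxes as repressors, while the nuclear receptors NR1D1 and NR1D2 repress BMAL1. DBP and TEF are bZIP factors that carry the rhythm to genes with D-box elements, and NFIL3 competes with them for these sites. PER1 and PER2 are also known to respond to signals from outside the cell through CREB, and in breast tumors PER genes are among the clock genes whose expression is often reported as altered.

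Values are model-based expression indices, intensities on a linear scale that the authors normalized and deposited. Their median over all probe sets was 451 to 460.1 in the EC-70124 arrays and 437 to 444 in the control arrays. Pearson's r of log2 values between arrays of different groups, taken across probe sets, was 0.979 to 0.984, against 0.990 to 0.993 within groups. Of the markers of the cell line, vimentin (VIM) had intensities of 12837 to 13305 in treated and 13703 to 13991 in control cells and did not pass (limma, adjusted p = 0.328). The other 3 markers expected in the line were high but fell (limma, adjusted p under 0.05), SPARC with means of 1700 in treated and 3542 in control cells (log2 fold change -1.06), MSN with 7951 and 12557 (-0.66) and CD44 with 8265 and 10098 (-0.29). The hormone receptors ESR1 and PGR and the epithelial cadherin CDH1 lay between 149 and 233 in all 6 arrays, below the median of every array, although CDH1 was called higher (log2 fold change 0.19, limma adjusted p = 0.049). The epithelial marker EPCAM lay between 352 and 437 and did not pass. ERBB2, which was also expected to be low in this line, lay between 1442 and 1566, above the median of every array. By their mean intensity, 65.5% of genes were dimmer than ERBB2. The leukocyte and endothelial markers PTPRC, CD3E, PECAM1 and CDH5 lay between 78.6 and 328. The table holds no measure of background, so that a gene cannot be called absent from it. EC-70124 replicate 3 stood apart for the clock genes. It was the lowest of the treated arrays for all 10 of them, whereas it was the lowest for 42.1% of all genes and for 21 of the 41 genes that work with the clock genes described further on. The trait was not particular to the 10, since the closest of these partners largely shared it. It was the lowest treated array for BMAL1, BMAL2, NPAS2, NR1D1, NR1D2, RORA, RORB and NFIL3, but not for HLF, CIART or TIMELESS. Among the control arrays, replicate 3 was the lowest for 7 of the 10, against 39.8% of all genes and 14 of the 41. Results that rest on EC-70124 replicate 3 are given with and without it.

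Treatment with EC-70124 raised 5 of the 10 clock genes and lowered none of them at an adjusted p under 0.05 (limma's moderated test, Benjamini-Hochberg over all 18417 genes). PER2, BHLHE41, PER1, CRY1 and PER3 rose, in order of size, while CLOCK, CRY2, DBP, TEF and BHLHE40 did not pass. Calls were common in this comparison, since 34.5% of all genes passed, 19.7% as higher and 14.8% as lower. For 6 of the 10 clock genes the groups did not overlap, 5 higher and 1 lower, which 47.6% of all genes showed, 25.6% as higher and 22% as lower. In bulk RNA of a culture, a change in every cell and a change in the share of cells that express a gene cannot be told apart. The median log2 fold change, EC-70124 minus control, was 0.24 over the 10 clock genes and -0.0045 over all genes. Within this list the rises were found among repressors of the loop, 4 of the 5 PER and CRY genes and 1 of the 2 DEC genes. Neither of the 2 D-box factors rose. No test of these shares was made. The list holds mostly repressors and only 1 activator, CLOCK, and the activator BMAL1, described further on, rose as well (log2 fold change 1.13).

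**Figure D1:**
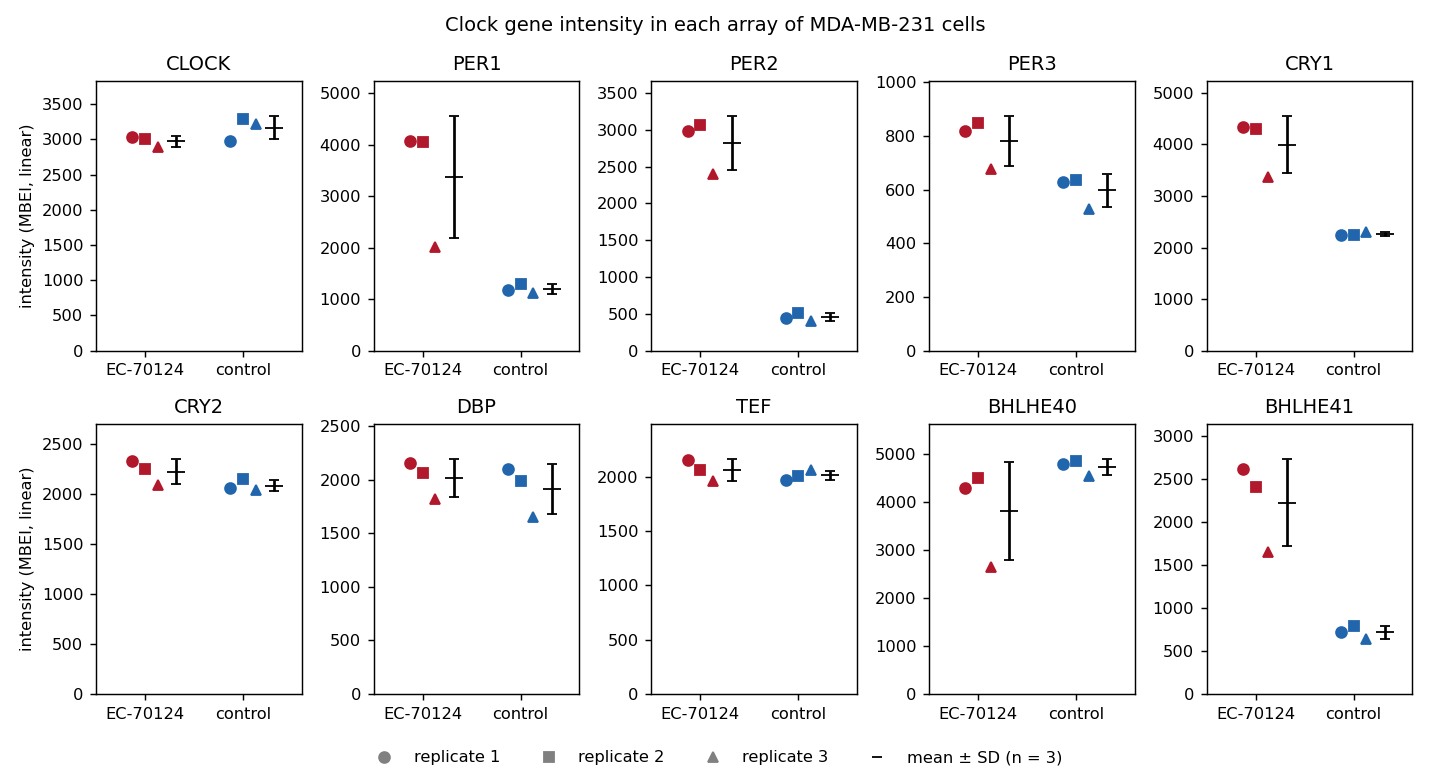
Intensity (model-based expression index, linear scale from 0, y axis) of each of the 10 clock genes in the 3 EC-70124 and the 3 control arrays (x axis), with marker shapes for the replicates and the mean ± SD beside them. The EC-70124 arrays of PER2 sit between 2396 and 3066 and its control arrays between 408 and 516, while for TEF the arrays of both groups sit between 1965 and 2161.

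Promoter sequences are shown for the 5 genes that rose and for BHLHE40 and TEF, which carry the same E-box without having passed the test. They are the 250 bases before a RefSeq start site (GRCh38.p14), written 5′ to 3′ on the strand of the gene, with E-box (CACGTG), E′-box (CACGTT) and D-box (TTATGTAA or TTACGTAA) matches of either strand in capitals. The windows are chr17:8152405-8152654 (minus strand) for PER1, chr2:238288611-238288860 (minus) for PER2, chr1:7784041-7784290 (plus) for PER3, chr12:107093550-107093799 (minus) for CRY1, chr12:26125038-26125287 (minus) for BHLHE41, chr3:4979187-4979436 (plus) for BHLHE40 and chr22:41367205-41367454 (plus) for TEF. PER3 and TEF have 2 windows each in the table, of which the one with the upstream start is printed.
PER1: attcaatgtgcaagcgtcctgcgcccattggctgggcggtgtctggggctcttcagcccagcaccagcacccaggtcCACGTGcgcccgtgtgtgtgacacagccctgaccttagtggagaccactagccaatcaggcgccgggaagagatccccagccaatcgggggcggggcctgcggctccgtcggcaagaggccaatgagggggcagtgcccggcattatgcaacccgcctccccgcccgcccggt
PER2: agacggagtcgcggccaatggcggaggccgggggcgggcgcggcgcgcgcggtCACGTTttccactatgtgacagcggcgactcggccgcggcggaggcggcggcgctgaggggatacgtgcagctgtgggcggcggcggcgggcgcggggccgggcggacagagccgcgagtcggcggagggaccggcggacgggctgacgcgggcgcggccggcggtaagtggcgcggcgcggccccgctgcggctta
PER3: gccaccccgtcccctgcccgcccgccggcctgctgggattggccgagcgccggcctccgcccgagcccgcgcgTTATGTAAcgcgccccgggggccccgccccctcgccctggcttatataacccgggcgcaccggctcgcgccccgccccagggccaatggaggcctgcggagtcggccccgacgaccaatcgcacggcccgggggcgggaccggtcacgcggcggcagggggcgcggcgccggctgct
CRY1: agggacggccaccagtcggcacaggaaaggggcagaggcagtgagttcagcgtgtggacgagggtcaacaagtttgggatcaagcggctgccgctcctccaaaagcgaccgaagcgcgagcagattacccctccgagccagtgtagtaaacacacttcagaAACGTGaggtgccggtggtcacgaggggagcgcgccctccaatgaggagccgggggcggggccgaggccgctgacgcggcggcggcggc
BHLHE41: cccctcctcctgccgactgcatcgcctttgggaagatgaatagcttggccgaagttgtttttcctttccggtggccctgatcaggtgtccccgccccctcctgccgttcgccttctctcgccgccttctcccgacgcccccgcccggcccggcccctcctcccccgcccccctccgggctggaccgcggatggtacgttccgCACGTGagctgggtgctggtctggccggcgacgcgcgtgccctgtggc
BHLHE40: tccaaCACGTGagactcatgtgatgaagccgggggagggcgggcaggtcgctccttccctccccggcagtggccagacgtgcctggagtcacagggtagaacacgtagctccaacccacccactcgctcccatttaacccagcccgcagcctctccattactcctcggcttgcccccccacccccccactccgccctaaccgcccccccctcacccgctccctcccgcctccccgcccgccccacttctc
TEF: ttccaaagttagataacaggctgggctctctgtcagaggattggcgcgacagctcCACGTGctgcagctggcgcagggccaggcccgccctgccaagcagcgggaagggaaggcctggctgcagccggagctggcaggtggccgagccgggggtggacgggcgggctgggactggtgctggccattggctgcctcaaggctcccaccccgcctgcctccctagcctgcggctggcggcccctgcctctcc

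PER1 and BHLHE41 held a CACGTG, 173 and 48 bases before the start, and PER2 and CRY1 a CACGTT, 197 and 89 bases before it (in CRY1 on the opposite strand, read as AACGTG). PER3 held the D-box TTATGTAA, 177 bases before the start. Among the genes that did not pass, BHLHE40 and both windows of TEF held a CACGTG, 1 window each of CLOCK and CRY2 a CACGTT, and DBP none of these letters. The E-box and the E′-box, which do not overlap in any of these windows, therefore occurred on both sides of the threshold. Among all 35116 windows of the same length, 6.34% held CACGTG, 4.55% held CACGTT and 0.94% held a D-box, against 5, 4 and 1 of the 14 windows of the 10 genes. The full CRE (TGACGTCA, in 1.65% of all windows) was in none of the 14, and its shorter core (TGACG, in 21.2%) was in 4 of them, of PER2, CRY1 and CRY2. These matches describe letters only, and no binding was measured.

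The PER genes encode the repressors that rise and fall with the loop, and all 3 were higher in treated cells, by very different amounts. PER2 (probe set 8059996) had intensities of 2989.7, 3066 and 2396 in EC-70124 replicates 1, 2 and 3, against 439.9, 516 and 408 in control replicates 1, 2 and 3. Every treated array was thus several times above every control array, and PER2 had the rank of 12 among all rises of the 18417 genes. Its log2 fold change was 2.63 ± 0.12 (SE), a fold of 6.19, with an adjusted p of 5.8e-06 from limma. PER1 (probe set 8012349) had 4070.3, 4047 and 2015 in the treated arrays, against 1179.6, 1303 and 1122 in the control arrays. Replicate 3 lay between the other treated arrays and the controls, and the treated arrays had a coefficient of variation of 34.9%, against 7.71% in the control arrays. PER1 changed by 1.42 ± 0.25 (SE) on the log2 scale (limma, adjusted p = 0.00263), and by 1.76 without EC-70124 replicate 3 (adjusted p = 2.3e-05). PER3 (probe set 7897378) showed the smallest of these changes, with 819.9, 848 and 676 in the treated arrays against 627, 636 and 528 in the control arrays. Its groups did not overlap, but the gap between them was only that between treated replicate 3 and control replicate 2. The log2 fold change of PER3 was 0.39 ± 0.11 (SE; limma, adjusted p = 0.0229), and 0.49 without EC-70124 replicate 3 (limma, adjusted p = 0.00549). Its call was lost, with adjusted p = 0.0698, 0.0791 and 0.0732, without EC-70124 replicate 1, EC-70124 replicate 2 and control replicate 3.

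The cryptochromes, which join the PER proteins in repressing CLOCK and BMAL1, separated from each other. CRY1 (probe set 7966052) had intensities of 4329.9, 4295 and 3362 in treated cells, against 2239.7, 2239 and 2309 in control cells. The control arrays lay close together and every treated array was above them, with a log2 fold change of 0.81 ± 0.10 (SE), a fold of 1.75 (limma, adjusted p = 4.0e-04). CRY2 (probe set 7939595) had 2329, 2245 and 2084 in treated cells, against 2057, 2145 and 2041 in control cells. The groups of CRY2 overlapped, and its log2 fold change of 0.09 had a 95% interval of -0.05 to 0.23 (adjusted p = 0.305 from limma). The overlap rested on EC-70124 replicate 3, since treated replicates 1 and 2 lay above every control array. Without that array the log2 fold change of CRY2 was 0.14 and did not pass (limma, adjusted p = 0.0890).

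The DEC repressors went apart as well. BHLHE41 (probe set 7961891) had intensities of 2609, 2403 and 1651 in the EC-70124 arrays, against 719.7, 793 and 638 in the control arrays. All treated arrays were at least 1651 and no control array exceeded 793. The log2 fold change was 1.61 ± 0.17 (SE), a fold of 3.05 (limma, adjusted p = 1.7e-04). BHLHE40 (probe set 8077441) had 4298, 4499 and 2645 in the treated arrays, against 4784, 4844 and 4532 in the control arrays. Treated replicates 1 and 2 were just under the lowest control array, and replicate 3 was far below. The groups of BHLHE40 thus did not overlap, a separation downward that 22% of all genes showed, but its log2 fold change of -0.35 ± 0.18 (SE) did not pass (limma, adjusted p = 0.191). Without EC-70124 replicate 3 it was -0.10 (adjusted p = 0.213), so that most of the difference came from that array.

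CLOCK, DBP and TEF had overlapping groups. CLOCK (probe set 8100428), the DNA-binding activator, had intensities of 3028, 3008 and 2886 in treated cells, against 2982, 3296 and 3219 in control cells, a log2 fold change of -0.09 with a 95% interval of -0.23 to 0.05. DBP (probe set 8038117), a direct E-box target in mouse tissues, had 2160.4, 2062 and 1820.3 in treated cells, against 2100.2, 1990.03 and 1654 in control cells. TEF (probe set 8073422) had 2160.7, 2067 and 1965 in treated cells, against 1974, 2008 and 2063 in control cells. Treated replicates 1 and 2 of TEF lay above every control array and replicate 3 below every one. Without EC-70124 replicate 3 the log2 fold change of TEF was 0.07 (limma, adjusted p = 0.357). The intervals of the log2 fold changes ran from -0.16 to 0.31 for DBP and from -0.10 to 0.17 for TEF, so that a change as large as that of CRY1 lay outside the interval of each of these 3 genes. The adjusted p from limma was 0.307 for CLOCK, 0.624 for DBP and 0.701 for TEF.

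**Figure D2:**
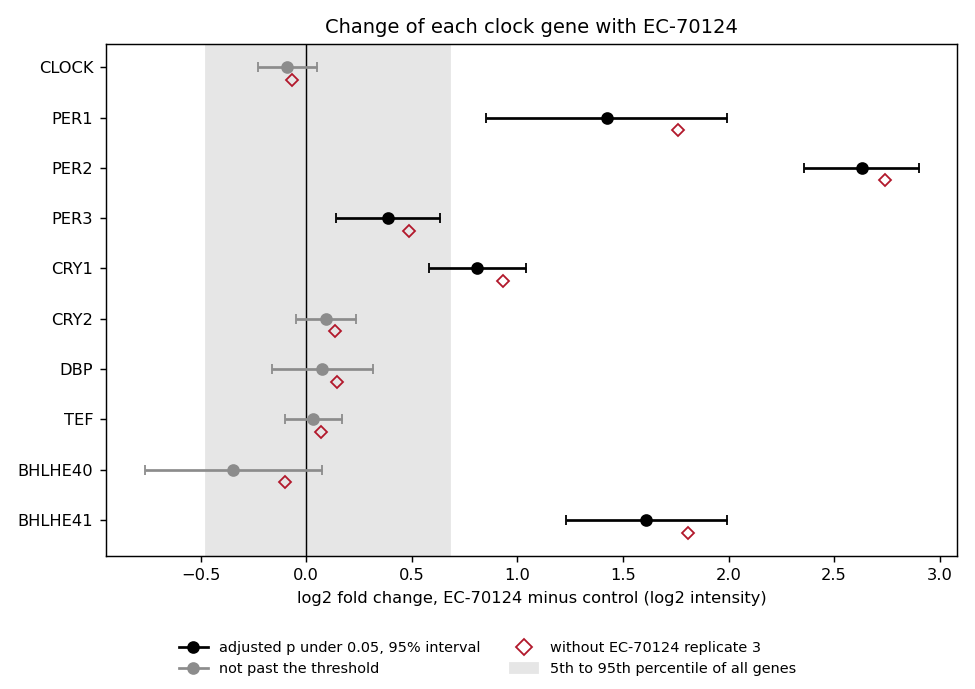
Log2 fold change, EC-70124 minus control (x axis), of each of the 10 clock genes (y axis), with 95% intervals from limma (n = 3 arrays per group), in black where the adjusted p is under 0.05 and in gray otherwise. Open diamonds give the value without EC-70124 replicate 3, and the band spans the 5th to 95th percentile of all genes, -0.48 to 0.68. PER2, BHLHE41, PER1 and CRY1 lie to the right of the band, and the value of BHLHE40 goes to -0.10 without that array.

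Related clock genes were compared within each array, as the difference of their log2 intensities, in 6 pairs. An exact two-sided permutation test of 3 against 3 arrays cannot give a p below 0.1, and with adjustment over the 6 pairs none could pass. The 95% intervals of the pairs do not come from that test. They use an ordinary t distribution with the variance pooled over the groups, so an interval can leave out 0 where the permutation test cannot pass. BHLHE40 minus BHLHE41 was 0.72, 0.90 and 0.68 in the treated arrays and 2.73, 2.61 and 2.83 in the control arrays, a difference in log2 fold change of -1.96 (95% interval -2.22 to -1.70). In these values replicate 3 was close to the other treated arrays, unlike in the 2 genes taken alone. For CRY1 minus CRY2 the difference in log2 fold change was 0.72 (95% interval 0.49 to 0.95). PER2 exceeded PER3 by 2.24 (2.07 to 2.42), PER1 exceeded PER3 by 1.04 (0.36 to 1.71), and PER1 minus PER2 was -1.21 (-1.84 to -0.58). Without EC-70124 replicate 3, PER1 exceeded PER3 by 1.27 and PER1 minus PER2 was -0.98. In these 5 pairs the groups did not overlap and the exact permutation p was 0.1, the smallest possible (0.12 adjusted). For DBP minus TEF the groups overlapped, with a difference of 0.04 (-0.31 to 0.40, exact permutation p = 0.8).

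**Figure D3:**
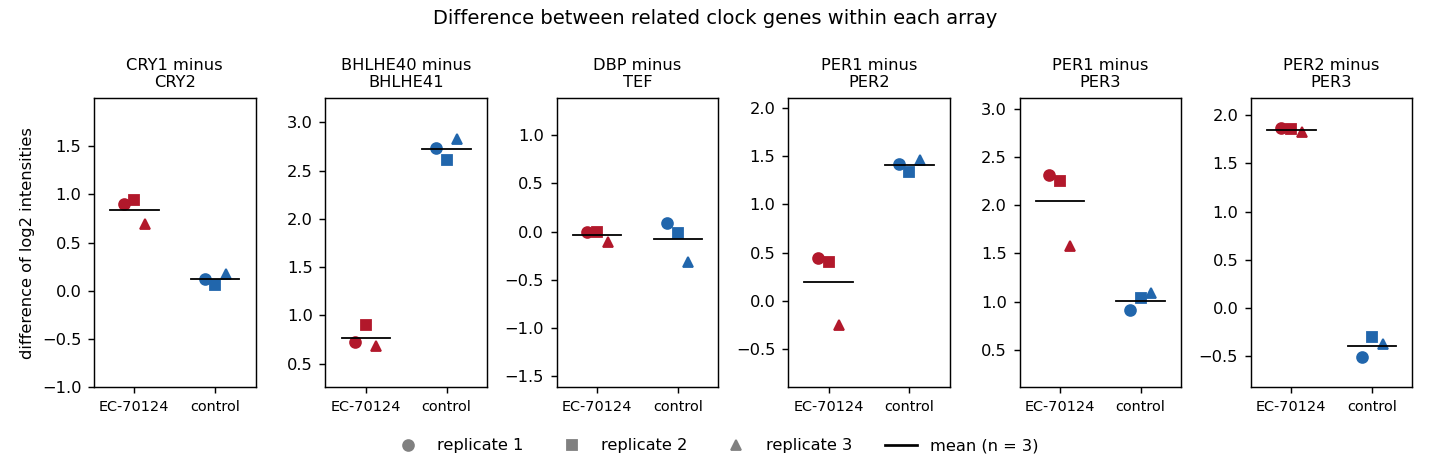
Difference of log2 intensities between 2 related clock genes within each array (y axis, each panel spanning the same number of log2 units), for the 3 EC-70124 and the 3 control arrays (x axis), with the group mean as a line. PER2 minus PER3 lies between 1.83 and 1.87 in treated arrays and between -0.51 and -0.30 in control arrays, and DBP minus TEF overlaps.

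Genes that work with the clock genes were taken from a list by role. Of its 48 genes, 41 were measured by a probe set of their own, 3 (CSNK1E, CSNK2A1 and SIK1) share theirs with another symbol, and the others were not analysed here. Of the 41, 16 were called higher and 7 lower, against 19.7% and 14.8% of all genes, with a median log2 fold change of 0.13. The partners of the loop itself changed in both directions. BMAL1, the partner of CLOCK, had intensities of 1897, 1944 and 1674 in treated cells, against 841, 838 and 835 in control cells, a log2 fold change of 1.13 ± 0.07 (SE; limma, adjusted p = 1.6e-05). NPAS2, which can take the place of CLOCK, fell with a log2 fold change of -0.68, and BMAL2 fell with -0.29. All treated arrays of these 3 genes were on one side of the control arrays, which 47.6% of all genes showed.

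Among the nuclear receptors of the loop, NR1D1, the repressor of BMAL1, had intensities of 6160.3, 6058 and 3830.03 in treated cells, against 1473, 1588 and 1375 in control cells. Its log2 fold change was 1.82 ± 0.17 (SE; limma, adjusted p = 1.1e-04), and replicate 3 was again the lowest treated array. NR1D2 rose as well (log2 fold change 0.61), while RORB, a receptor that activates through the same elements, fell (-0.53). The intensities of RORB were low, 272 to 328 in treated and 426 to 440 in control cells, each below the median of its array. RORA did not pass (-0.09, adjusted p = 0.370 from limma). NFIL3, the repressor at D-boxes, rose with a log2 fold change of 0.59, while HLF, a relative of DBP and TEF, had 0.17 and did not pass (adjusted p = 0.0668 from limma). TIMELESS rose with 0.25, and CIART, a repressor of CLOCK and BMAL1, had -0.04.

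Of 8 measured kinases that act on clock proteins, 2 rose, GSK3A (log2 fold change 0.23) and the AMPK subunit PRKAA1 (0.25), and 6 did not pass, among them the casein kinase CSNK1D, which phosphorylates PER proteins (-0.03). These counts by role are small and stand beside the 19.7% of all genes called higher and the 14.8% called lower, so that 2 of 8 kinases is near the background. Of the ubiquitin ligase genes, BTRC and FBXW11, whose products mark phosphorylated PER for degradation, fell with log2 fold changes of -0.48 and -0.29. The deubiquitinase USP2 did not pass. Neither did FBXL21P, a pseudogene by its symbol, which lay between 83.9 and 114 in the 6 arrays, where only 3.34% of genes were dimmer. Of 9 coregulators, 5 rose and none fell by the probe set used for each gene, with 0.65 for CREBBP and 0.44 for EP300, the acetyltransferases that coactivate CLOCK and BMAL1, 0.63 for SFPQ, 0.28 for KDM5A and 0.21 for HDAC3. KMT2A, a histone methyltransferase, had a log2 fold change of -0.02 by that probe set and did not pass, but a dimmer probe set of it fell with -0.31 (limma, adjusted p = 0.0125 over all probe sets). Of 5 genes of the CREB input, CREB1 (0.44) and the coactivator CRTC2 (0.38) rose. Of 4 outputs, NOCT, which encodes nocturnin, rose with 1.18 and KLF10 with 1.16, while NAMPT fell with -0.30 and WEE1 with -0.20. For WEE1, 2 dimmer probe sets had log2 fold changes of -0.02 and 0.05 and did not pass, and for NAMPT another probe set had -0.29 (limma, adjusted p = 0.0655 over all probe sets). The calls of WEE1 and NAMPT themselves were adjusted over genes, so the adjusted p-values of NAMPT are not alike, while its log2 fold changes are close.

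**Figure D4:**
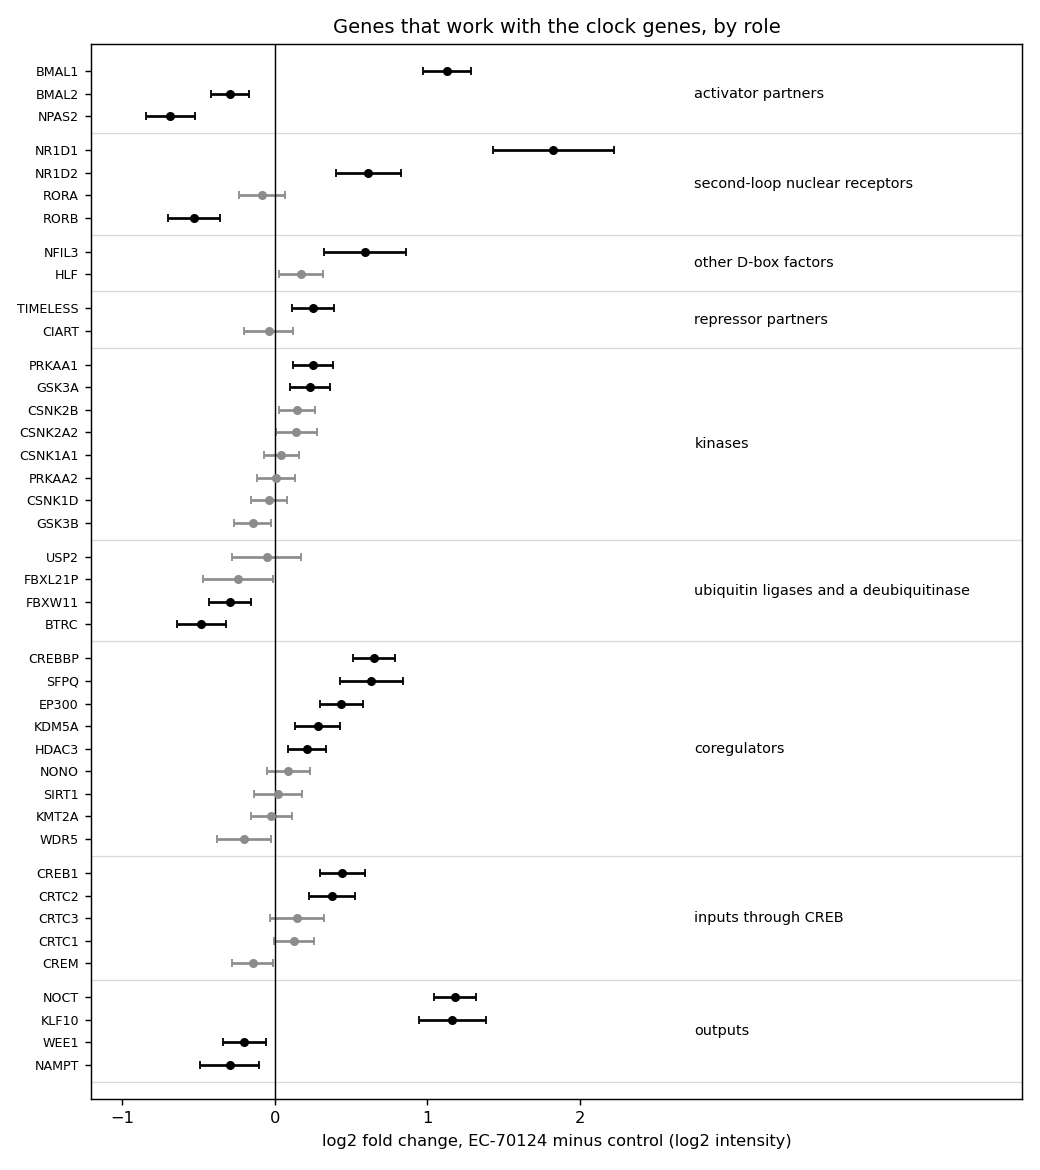
Log2 fold change, EC-70124 minus control (x axis), with 95% intervals from limma (n = 3 arrays per group), of the 41 measured genes that work with the clock genes (y axis), grouped by role, in black where the adjusted p is under 0.05 and in gray otherwise. NR1D1 lies farthest to the right with 1.82, and NPAS2 farthest to the left with -0.68.

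The pattern of PER2 over the 6 arrays was compared with that of every other gene, as the root mean square difference of log2 values centred on each gene's control mean. The smallest differences were those of the cytokine gene IL32 (0.15), the metalloprotease gene MMP19 (0.15) and the stress-induced regulator NUPR1 (0.19), with log2 fold changes of 2.45, 2.72 and 2.79. With 3 arrays per group this likeness mostly reflects a change of similar size, and the same was not done for a fall, since no clock gene fell past the threshold.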

How the data were processed

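The deposited intensity values are model-based expression indices on a linear scale, 1 per probe set and array, which the authors computed in dChip after rank invariant normalization of all arrays. No version of dChip and no background correction is stated in the sources used here. Values under 1 were set to 1 before log2. The platform annotation gives 1 symbol for 19460 of the 33252 probe sets, several for 1754 and none for 12038. This left 18417 genes, and where a gene had several probe sets (769 genes), the brightest by its mean over the 6 arrays stood for it. The 10 members matched current RefSeq symbols by Entrez identifier. Treated and control arrays, grouped by sample title, were compared with limma 3.58.1 (lmFit, eBayes; R 4.3.3), two-sided, at a threshold of 0.05, with a median standard error of 0.07. Pairs of related genes were compared by exact permutation. The number of arrays limits the precision. The scripts were tested on simulated data. Promoters came from a RefSeq table of GRCh38.p14.

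The members, the partner lists, the motifs and the alternatives were chosen with earlier results of these data known. All members were named, of the partners those past the threshold or with the lowest p of their role and some others, which were picked after their values had been seen. Alternatives were normalization by quantiles or by cyclic loess, a filter that drops the 30% of genes with the lowest mean, 50 added to each intensity, the median of a gene's probe sets, a robust prior with a trend on intensity, adjustment over all probe sets, a replicate block, a test against a fold of 1.2, and each replicate left out in turn.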

Additional observations from a re-analysis of the deposited data

How the results depend on the processing

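Of the 10 clock genes, PER1, PER2, CRY1 and BHLHE41 rose past the threshold under all 15 alternatives, with log2 fold changes of 1.25 to 1.76, 2.50 to 2.74, 0.75 to 0.93 and 1.48 to 1.81. CLOCK, CRY2, DBP, TEF and BHLHE40 passed under none. PER3 (log2 fold change 0.39) lost its call with adjustment over all probe sets (0.39, adjusted p = 0.0605 from limma), when tested against a fold of 1.2 (0.39, adjusted p = 0.650), and without EC-70124 replicate 1, EC-70124 replicate 2 or control replicate 3 (0.30 to 0.35). DBP and TEF, which did not pass in any setting, had a log2 fold change below 0 in 2 settings each. With adjustment over all probe sets, 16 partner genes were called higher and 5 lower, against 16 and 7 with adjustment over genes. Tested against a fold of 1.2, 7 partner genes were called higher and 2 lower, and 1511 and 802 of all genes. After quantile normalization 3113 of all genes were called higher and 3528 lower, against 3632 and 2722 on the deposited values, while the clock genes kept 5 rises and no fall. With an offset of 50 before log2, PER2 exceeded PER3 by 2.14. Deviations of same-numbered samples from their group means correlated with 0.13, -0.02 and 0.14, and 2 of the 3 treated samples correlated best with another number. With 3 arrays per group these values cannot decide whether replicate numbers pair the samples. With the replicate number as a block, 6184 genes passed against 6354, and the clock genes had 5 rises and 0 falls, PER3 with an adjusted p of 0.00322. Without a measure of background, signal over background could not be given.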
